A study of Mus musculus with 2 samples.

Results

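D1 striatal-type medium spiny neurons were taken from single-nucleus RNA sequencing of the mouse amygdala by a rule on raw UMIs, the molecule counts of the assay. A nucleus had to hold at least 1 UMI of Rgs9, 3 of Ebf1 and 2 of Rarb, at most 1 of Drd2 and 0 of Slc17a7. Of 18924 nuclei with at least 500 genes and at most 5% mitochondrially encoded UMIs, 1105 met this rule. They were 371 of 8133 nuclei in the library labelled Sema6d-/- (KO) and 734 of 10791 nuclei in the library labelled wild type (WT). Both libraries came from C57BL6/J mice of 6 to 8 weeks and were made with version 2 of the 10x 5' kit, whose tags come from the 5' part of an RNA. Neither the number and sex of the animals behind a library nor the deleted part of Sema6d is given in the sources used here. With 1 library per genotype no difference between genotypes was tested. Each comparison below is between the libraries labelled KO and WT, and the intervals in brackets are exact at 95% and cover counting error only.

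Medium spiny neurons are the GABA-releasing projection neurons of the striatum and of the striatum-like parts of the amygdala. The D1 type carries the dopamine receptor Drd1, which couples through the G protein subunit encoded by Gnal and the adenylyl cyclase Adcy5 to cyclic AMP and protein kinase A, and it makes the peptides of the Tac1 and Pdyn genes. The D2 type carries Drd2 and Adora2a and makes the enkephalin precursor Penk. Sema6d belongs to the membrane-bound semaphorins, which steer growing axons through plexins of the A class.

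The D1 nuclei were well covered. They held 3973611 UMIs in KO, where the median nucleus had 10034 UMIs and 3533 genes, and 7482786 UMIs in WT, where it had 9512.5 UMIs and 3440.5 genes. The median share of mitochondrially encoded UMIs was 0.294% in KO and 0.568% in WT. The libraries shared 128 barcodes, and no barcode was a D1 nucleus in both. The nuclei that met the rule made up 4.56% of the KO library (4.12% to 5.04%) and 6.80% of the WT library (6.33% to 7.29%). After every nucleus had been thinned to 2000 UMIs the same rule kept 21 KO nuclei and 62 WT nuclei, or 0.310% and 0.619% of the nuclei deep enough to thin. Other classes, described below, also differed in number: the D2 class had 745 of 8133 KO and 1545 of 10791 WT nuclei, and oligodendrocytes had 608 and 323. The dissection of the tissue is part of each library, so a share of nuclei and the piece of tissue taken cannot be told apart.

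The genes of the rule had similar levels in both libraries, which the rule itself favours. Levels are summed UMIs per 1e+06 UMIs of the class (CPM). Ebf1, a transcription factor of developing D1 neurons, had 537 CPM in KO and 543 CPM in WT. Rarb, a retinoic acid receptor, had 1566 CPM in KO and 1567 CPM in WT, and Rgs9, a striatal regulator of G protein signalling, had 1044 CPM in KO and 1104 CPM in WT. Nuclei just inside the Ebf1 minimum, with 3 UMIs, held 310 CPM of Drd1 in KO and 199 CPM in WT. Nuclei just outside it, with 2 Ebf1 UMIs and the rest of the rule met, held 294 CPM of Drd1 in KO and 188 CPM in WT. At the Rarb minimum the members stood apart from the rest of the class: the 7 KO and 9 WT nuclei with 2 Rarb UMIs held 13.1 and 73.2 CPM of Drd1 and 432 and 452 CPM of Penk. The 7 KO and 10 WT nuclei left out with 1 Rarb UMI held 40.6 and 92.3 CPM of Drd1. At the Drd2 maximum the difference between the sides was larger. The 15 KO and 49 WT members with 1 Drd2 UMI held 8.56 and 7.86 CPM of Adora2a, while the 19 KO and 37 WT nuclei left out for 2 or more held 153 and 80.2 CPM.

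Markers outside the rule followed the label. Drd1 had 271 CPM in KO and 186 CPM in WT in D1 nuclei, against 16.4 and 16.8 CPM in nuclei of a D2 class (745 KO and 1545 WT nuclei chosen by Drd2, Rgs9 and Rarb with few Ebf1 UMIs). Tac1, the substance P precursor, had 211 CPM in KO and 151 CPM in WT in D1 nuclei. Pdyn, the dynorphin precursor, had 46.1 CPM in KO and 47.0 CPM in WT. These levels are a description, since the classes were cut from the same nuclei. The D2 marker Adora2a stood at 10.6 CPM in KO and 10.0 CPM in WT in D1 nuclei, and Penk at 205 and 209 CPM. An oligodendrocyte class, which should lack Penk, held 579 CPM in KO and 576 CPM in WT. Its nuclei were shallower, so CPM alone does not place the Penk of D1 nuclei against background. Without thinning, 77.6% of KO and 82.2% of WT D1 nuclei had a Penk UMI, against 72.2% and 76.5% of oligodendrocytes. Whether the Penk of D1 nuclei was background was not tested. The 8 markers of intercalated and central amygdala neurons were uneven. Foxp2 had 752 CPM in KO and 762 CPM in WT, Pbx3 had 345 and 376 CPM, and the serotonin receptor Htr2c had 341 and 339 CPM. Tshz1 had 18.4 CPM in KO and 26.9 CPM in WT, Nts had 14.1 and 11.6 CPM, and Prlr had 5.03 and 4.14 CPM. Prkcd and Cyp26b1 were near 0, with 8 and 10 UMIs in KO and 2 and 7 UMIs in WT. Whether the nuclei lay in the amygdala or in adjoining striatum was not tested.

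**Figure D1:**
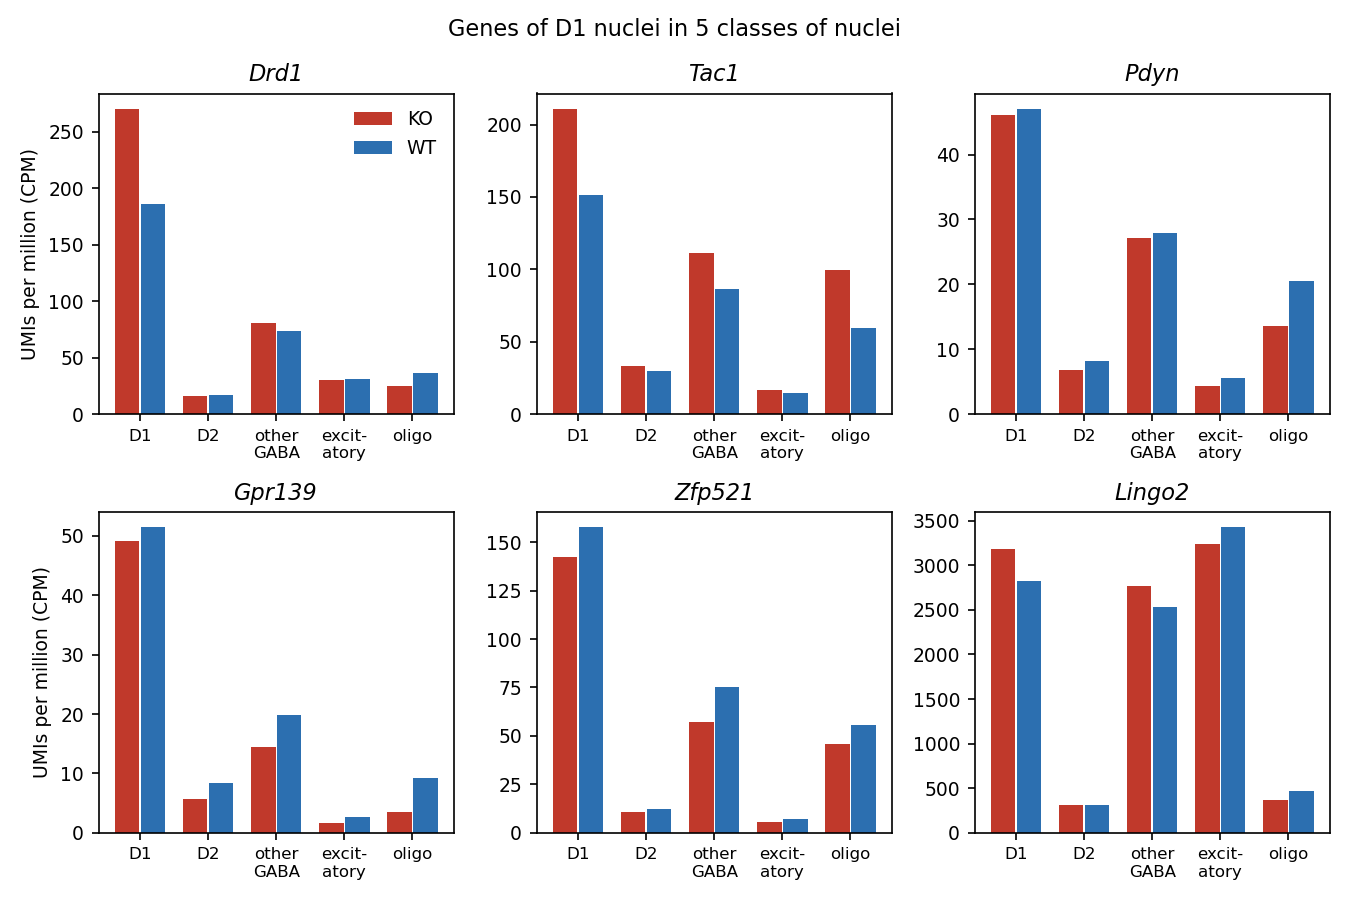
Summed UMIs per 1e+06 UMIs (CPM) of Drd1, Tac1, Pdyn, Gpr139, Zfp521 and Lingo2 (y axis, from 0) in D1, D2, other GABA, excitatory and oligodendrocyte classes of nuclei (x axis), with KO and WT bars side by side, 1 library each. Drd1 had 271 CPM in KO and 186 CPM in WT in D1 nuclei and under 20 CPM in the D2 class.

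Beyond the known markers, genes with at least 50 CPM were ranked by their level in D1 nuclei over that in all other nuclei. After Ebf1, the leading gene was Gpr139, an orphan receptor of the habenula and striatum, with 49.1 CPM in KO and 51.5 CPM in WT in D1 nuclei and 8.93 and 12.5 CPM in all other nuclei. Drd1, Tspear, Mhrt and Prkch came next, with D1 levels 4.19, 3.87, 3.78 and 3.48 times those of the other nuclei over both libraries. Apart from Drd1 these were also present in the D2 class. Over both libraries Tspear had 91.5 CPM in D1 and 74.7 CPM in D2 nuclei, Mhrt 52.6 and 34.6 CPM, and Prkch 108 and 65.1 CPM. Against the D2 class the genes with the largest excess after Ebf1 were Zfp521, Drd1, Sntg2, Lingo2, Cntnap3, Kcnk13 and Gpr139. Zfp521, a zinc finger partner of Ebf1, had 142 CPM in KO and 158 CPM in WT in D1 nuclei, against 10.8 and 12.2 CPM in the D2 class. Lingo2, a neuronal leucine-rich repeat protein, had 3183 CPM in KO and 2819 CPM in WT in D1 nuclei, against 311 and 314 CPM in the D2 class. It was not particular to D1 nuclei, with 2763 and 2527 CPM in other GABA and 3240 and 3426 CPM in excitatory nuclei. Kcnk13 had 147 CPM in KO and 136 CPM in WT in D1 nuclei, but 221 and 171 CPM in oligodendrocytes. At the other end, after Drd2 and Adora2a, stood the delta opioid receptor Oprd1, Gpr6, Grik3, Ptprm, Nell1 and the netrin receptor Unc5d. Unc5d had 122 CPM in KO and 105 CPM in WT in D1 nuclei, against 830 and 807 CPM in the D2 class. None of these genes other than Drd1 differed between KO and WT D1 nuclei by a log2 ratio of 0.5 where it had at least 100 UMIs.

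Across the transcriptome the KO and WT D1 nuclei were close. For 9540 genes with at least 100 UMIs over both libraries the median log2 ratio of KO over WT was 0.01, and the 5th and 95th percentiles were -0.48 and 0.50. A log2 ratio of at least 0.5 was found for 473 genes, 4.96% of those measured, and one of at most -0.5 for 414 genes, 4.34%. Under TMM scaling, which shifted every ratio by -0.05, the numbers were 364 higher and 549 lower in KO. These counts take no account of counting error, and they serve as the background for the gene lists below.

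**Figure D2:**
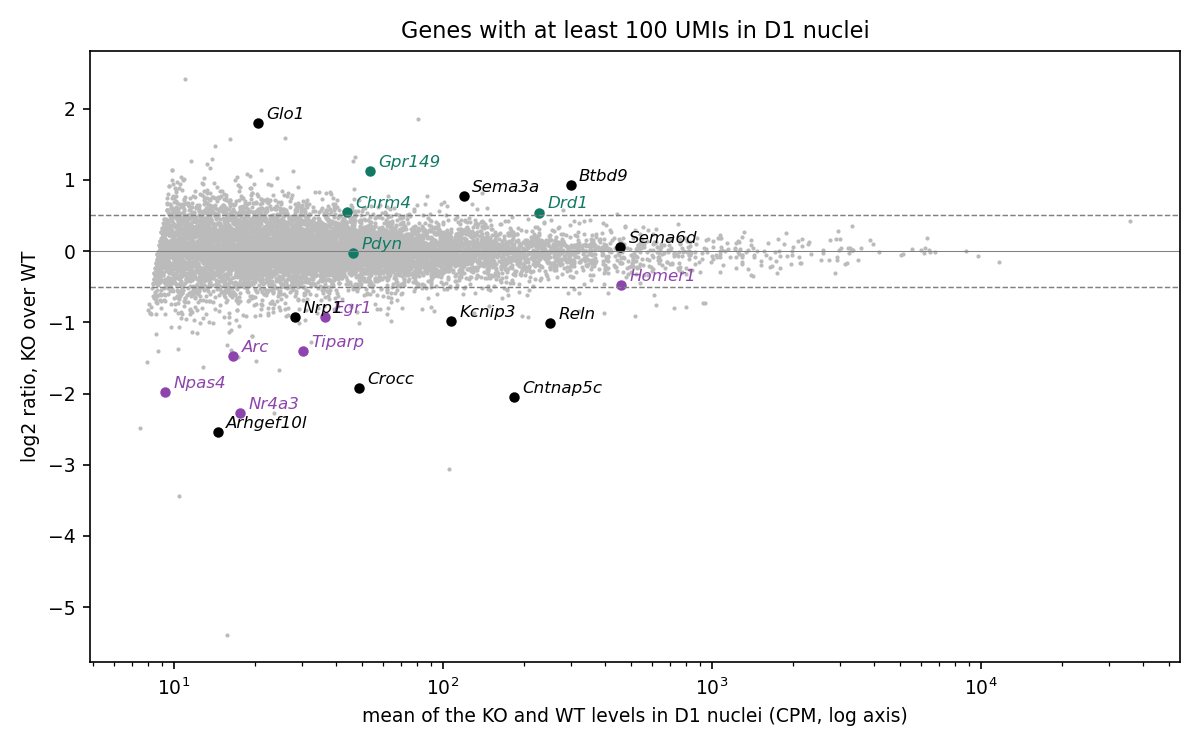
Log2 ratio of KO over WT (y axis) against the mean of both levels in CPM (x axis, log) for each gene with at least 100 UMIs in D1 nuclei, with dashed lines at log2 ratios of 0.5 and -0.5. Most genes lie between the lines, Drd1 lies at 0.54, Reln at -1.01 and Cntnap5c at -2.05, and Sema6d at 0.05.

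Sema6d itself had 466 CPM in KO D1 nuclei and 449 CPM in WT D1 nuclei. The levels overlapped within counting error, with a log2 ratio of 0.05 (-0.03 to 0.14), and in the D2 class the ratio was 0.01. This level does not check the genotype labels, because the position of the deletion within the gene is unknown here. Thinned to 2000 UMIs, 56.1% of KO and 50.8% of WT D1 nuclei had a Sema6d UMI, against 47.5% and 44.7% of oligodendrocytes, a class that may use the gene itself.

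The dopamine receptor of these neurons was higher in the KO library. Drd1 had 271 CPM in KO D1 nuclei and 186 CPM in WT D1 nuclei, a log2 ratio of 0.54 (0.43 to 0.66). In the D2 class the ratio was -0.04, with 16.4 CPM in KO and 16.8 CPM in WT. Of thinned D2 nuclei, 2.68% in KO and 3.11% in WT had a Drd1 UMI, lower than the oligodendrocyte shares below. The D2 level was thus no higher than background, and its ratio cannot show whether D2 neurons share the difference. Among nuclei thinned to 2000 UMIs, 44.5% of KO D1 nuclei (39.3% to 49.7%) and 30.5% of WT D1 nuclei (27.2% to 34.0%) had a Drd1 UMI. These intervals treat the nuclei of 1 library each as the sample, so they do not compare genotypes. The oligodendrocyte class stood at 3.96% in KO and 9.04% in WT. The Drd1 ratio was 0.49 under TMM scaling, 0.48 in thinned members, 0.38 among members with a Drd1 UMI and 0.15 in the 21 KO and 62 WT nuclei chosen after thinning. Tac1 was at 211 CPM in KO and 151 CPM in WT, a log2 ratio of 0.48 (0.35 to 0.61), just under the size counted as higher. Its share of thinned nuclei was 31.3% in KO and 24.0% in WT, with 14.7% and 12.8% of oligodendrocytes as background. The median depths were 10034 and 9512.5 UMIs in D1 nuclei and 1958 and 2150 UMIs in oligodendrocytes. Pdyn, the other peptide gene of the class, had a log2 ratio of -0.03 (-0.30 to 0.23), and 8.36% of KO and 8.04% of WT thinned nuclei held a UMI of it.

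**Figure D3:**
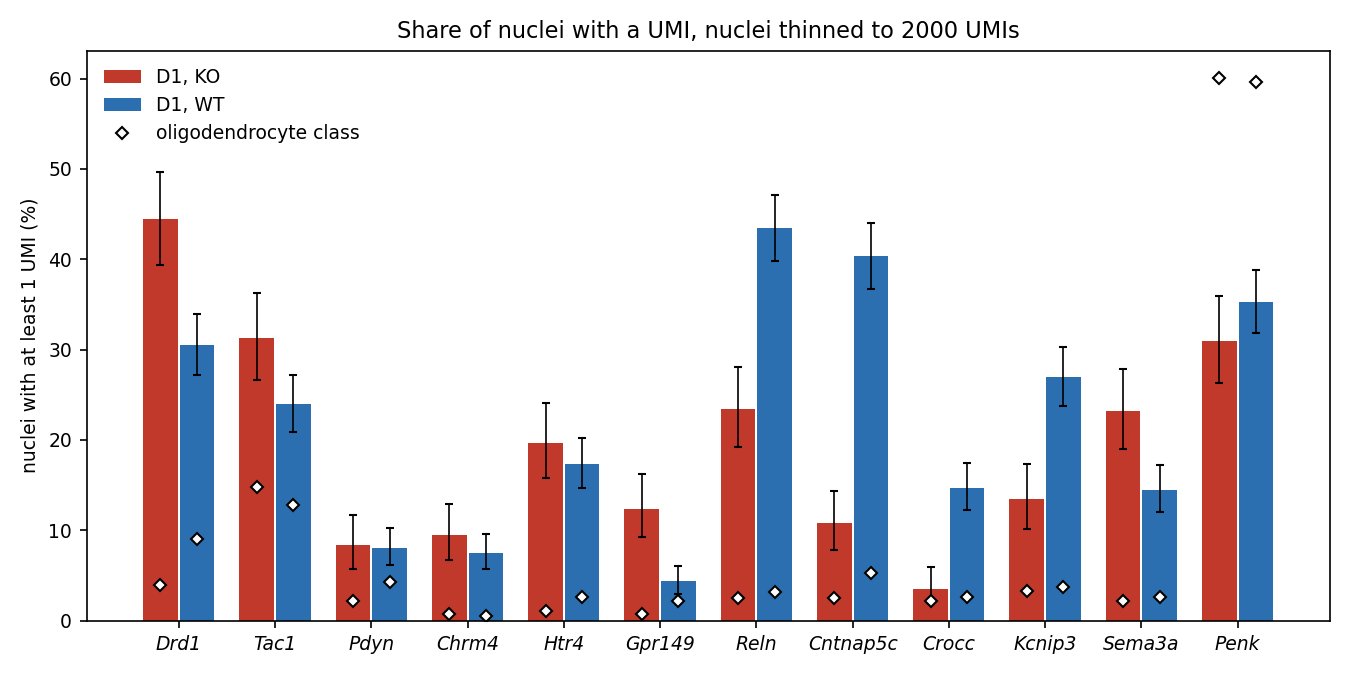
Share of D1 nuclei with at least 1 UMI of a gene after thinning to 2000 UMIs (y axis, %), KO and WT bars with exact 95% intervals, and the same share in the oligodendrocyte class as diamonds. The KO and WT bars stand at 44.5% and 30.5% for Drd1 and at 23.5% and 43.5% for Reln. For Penk both D1 bars lie below the diamonds. Without thinning the Penk share was higher in D1 nuclei than in oligodendrocytes, in KO and in WT.

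Receptors for other neuromodulators showed a mixed picture. Of 21 measured genes on this list, 5 were higher in KO by at least 0.5 and 2 lower, beside 4.96% and 4.34% of all measured genes, with a median log2 ratio of 0.15 against 0.01 for all genes. Chrm4, the muscarinic receptor that opposes Drd1 in these cells, had 52.1 CPM in KO and 35.7 CPM in WT, a log2 ratio of 0.55 (0.28 to 0.81). In the few nuclei chosen after thinning the Chrm4 ratio was -0.07, and under TMM scaling it was 0.496, just under the size counted. Gpr149, an orphan receptor, had 73.2 CPM in KO and 33.7 CPM in WT, a log2 ratio of 1.12 (0.87 to 1.37), and 0.17 in the D2 class. In thinned D1 nuclei 12.4% of KO and 4.36% of WT nuclei had a Gpr149 UMI, so the higher level was spread over more nuclei. The adrenergic receptor Adra2c had 23.4 CPM in KO and 14.7 CPM in WT (log2 ratio 0.67), and the substance P receptor Tacr1 had 11.8 and 8.29 CPM (0.51). Tacr1 rested on few nuclei: without the nucleus that held most of its UMIs in each library, its ratio was -0.01, and without doublets it was -0.71. Serotonin receptors went both ways, with Htr4 at 157 CPM in KO and 119 CPM in WT (0.40) and Htr1d at 18.1 and 31.1 CPM (-0.78, or -0.49 among members without a raw Reln UMI). The dopamine receptor Drd3 had 27 UMIs in KO and 82 UMIs in WT, a log2 ratio of levels of -0.69. The cannabinoid receptor Cnr1 differed little, at 717 CPM in KO and 645 CPM in WT.

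Few genes of dopamine and cyclic AMP signalling were past the size counted. Of 31 measured members, 24 had a ratio below 0, beside 4691 of all 9540 genes, and the median was -0.12. By 0.5, 1 was higher (Drd1) and 2 were lower (Drd3 and Rasd2), beside 4.96% and 4.34% of all measured genes. Gnal had 545 CPM in KO and 639 CPM in WT (log2 ratio -0.23), and Gng7, which pairs with it, had 401 and 488 CPM (-0.28). Adcy5 had 813 CPM in KO and 921 CPM in WT (-0.18). Pde7b, a cyclic AMP phosphodiesterase, had 1236 CPM in KO and 1554 CPM in WT (-0.33), whereas Pde10a, the main striatal phosphodiesterase, had 5047 and 5184 CPM (-0.04). Ppp1r1b, which encodes the dopamine-regulated phosphatase inhibitor DARPP-32, had 294 CPM in KO and 271 CPM in WT (0.12). Rasd2, a striatal small G protein, came next to Drd3 in the list, with 29.2 CPM in KO and 46.4 CPM in WT (-0.67). Under the stricter rule the Rasd2 ratio was -0.32, and under the looser rule the Drd3 ratio was -0.34. In the D2 class 24 of 31 members were also below 0, with a median of -0.12, and no share over all genes was counted there.

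Genes induced by neuronal activity formed the list with the lowest median. Of 37 members, 15 reached 100 UMIs, and 11 of these were lower in KO by at least 0.5 and 0 higher, with a median of -0.93. Of all measured genes 4.34% were lower by that size. In the D2 class 23 members were measured, 11 were lower, 0 were higher, and the median was -0.44. No share over all genes was counted in the D2 class, so these D2 counts have no background beside them. Nr4a3, an orphan nuclear receptor, had 6.04 CPM in KO and 29.1 CPM in WT, a log2 ratio of -2.27 (-2.94 to -1.66). Its UMIs lay in 15 of 371 KO nuclei and 69 of 734 WT nuclei, with at most 8 UMIs in 1 KO nucleus and 25 in 1 WT nucleus. Npas4, a transcription factor switched on by calcium entry, had 3.77 CPM in KO and 14.8 CPM in WT (-1.97, interval -2.86 to -1.19). Arc, a synaptic immediate early gene, had 8.81 CPM in KO and 24.5 CPM in WT (-1.47) and a UMI in 25 KO nuclei and 105 WT nuclei.

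Other members of the list were lower in the same direction at smaller size. Tiparp had 16.6 CPM in KO and 43.8 CPM in WT (-1.40), Dusp14 had 9.06 and 22.6 CPM (-1.32), and Nr4a1 had 11.8 and 27.1 CPM (-1.20). The early growth response genes Egr1 and Egr3 had 25.2 and 14.6 CPM in KO and 47.8 and 27.3 CPM in WT, or log2 ratios of -0.93 and -0.90. The Egr1 ratio was -0.30 in the nuclei chosen after thinning. Junb stood at -1.01, or -0.03 among members without a raw Reln UMI, and the clock gene Per1 at -0.89. Homer1, whose short form is induced at synapses, had 384 CPM in KO and 534 CPM in WT (-0.48), and 1 KO nucleus alone held 120 of its 1525 UMIs. Exceptions were Jund, with 34.5 CPM in KO and 26.1 CPM in WT (0.40), and Inhba at 0.19. Fos and Fosb did not reach 100 UMIs: Fos had 12 UMIs in KO and 45 in WT, and Fosb had 4 and 19. Per nucleus, the summed UMIs of the list had a median of 6 in KO and 7 in WT, and a mean of 7.02 and 10.3. The highest value was 192 in KO and 135 in WT. Homer1 alone made up 384 of the 656 CPM of the list in KO and 534 of 1008 CPM in WT. The time between handling of the animals and freezing of the tissue is not given in the sources used here, and the part of handling in these levels was not tested.

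**Figure D4:**
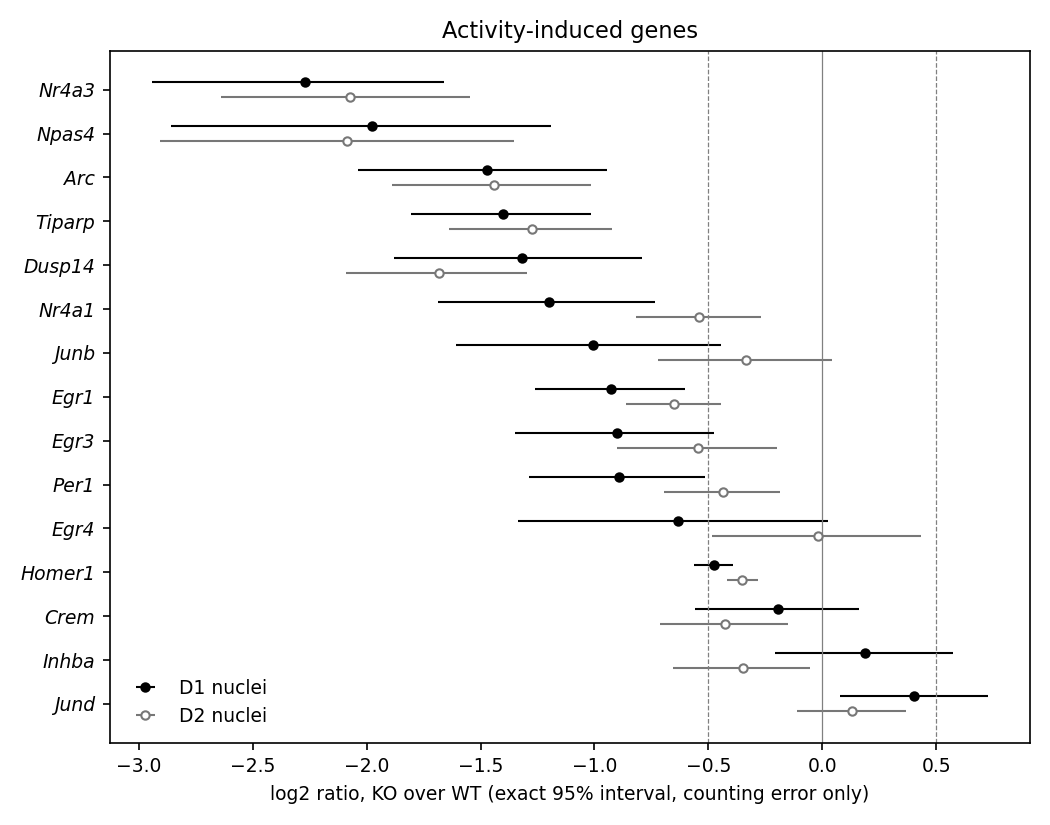
Log2 ratio of KO over WT (x axis) for the 15 activity-induced genes measured in D1 nuclei (filled) with the D2 class beside them (open), each with an exact 95% interval for counting error. The D1 ratios run from -2.27 for Nr4a3 to 0.40 for Jund.

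Promoters of this list were read because many activity-induced genes are known targets of the cyclic AMP response factor CREB. RefSeq entries (build GRCm38.p6) were found for 11 of the 15 measured genes, and the 250 bases before the start were read on the strand of the gene, 5′ to 3′. The core site TGACG, searched on both strands, was present in an entry of 7 of the 11 genes, and in an entry of 19.8% of all 27025 genes. The full site TGACGTCA was present in 0 of the 11 genes and in an entry of 1.77% of all genes. Capitals mark TGACG or its reverse complement CGTCA. Nr4a3 held 4 core sites, Nr4a1 held 4 and Npas4 held 2, and Tiparp held 0 and is printed for contrast. Dusp14, Inhba and Jund also held 0. A match describes the letters only, and the choice of an activity-induced list may itself favour such sites. Whether the sites bear on the KO and WT levels was not tested.
Nr4a3 (chr4:48045055-48045304, + strand): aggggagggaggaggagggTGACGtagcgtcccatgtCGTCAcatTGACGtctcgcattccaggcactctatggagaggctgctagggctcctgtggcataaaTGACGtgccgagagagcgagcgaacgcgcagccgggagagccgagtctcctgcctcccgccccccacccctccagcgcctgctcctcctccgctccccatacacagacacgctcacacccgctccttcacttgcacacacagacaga
Npas4 (chr19:4989972-4990221, - strand): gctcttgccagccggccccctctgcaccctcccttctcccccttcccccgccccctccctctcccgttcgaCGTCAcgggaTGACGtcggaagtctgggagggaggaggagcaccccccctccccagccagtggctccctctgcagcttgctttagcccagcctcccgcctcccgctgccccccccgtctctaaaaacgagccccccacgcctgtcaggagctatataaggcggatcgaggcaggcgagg
Nr4a1 (chr15:101266596-101266845, + strand): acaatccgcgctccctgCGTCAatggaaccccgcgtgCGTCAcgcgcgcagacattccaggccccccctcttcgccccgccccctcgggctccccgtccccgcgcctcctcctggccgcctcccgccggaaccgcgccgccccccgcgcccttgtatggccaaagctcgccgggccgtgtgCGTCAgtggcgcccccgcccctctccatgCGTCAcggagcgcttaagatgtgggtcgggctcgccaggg
Tiparp (chr3:65528197-65528446, + strand): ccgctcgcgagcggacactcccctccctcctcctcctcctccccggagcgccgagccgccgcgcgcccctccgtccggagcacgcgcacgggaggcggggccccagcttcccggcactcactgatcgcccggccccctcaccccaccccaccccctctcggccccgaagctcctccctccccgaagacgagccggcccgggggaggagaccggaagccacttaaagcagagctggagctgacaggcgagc

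Reln, the secreted glycoprotein reelin, was among the abundant genes with the largest difference. It had 166 CPM in KO and 335 CPM in WT D1 nuclei, a log2 ratio of -1.01 (-1.14 to -0.89), and the ratio was -1.79 in the D2 class. Among thinned D1 nuclei 23.5% of KO (19.2% to 28.1%) and 43.5% of WT (39.8% to 47.1%) had a Reln UMI, against 2.52% and 3.19% of oligodendrocytes. The Drd1 difference was present on both sides of this split. Nuclei with a Reln UMI after thinning held 305 CPM of Drd1 in KO and 199 CPM in WT, and the 284 KO and 415 WT nuclei without one held 261 and 176 CPM. This split by thinned UMIs is not the stricter alternative by raw UMIs, under which 216 of 371 KO and 596 of 734 WT nuclei had a Reln UMI and were left out. The split was made after the data had been seen. Gpr149 differed on one side more than on the other: it had 27.2 CPM in KO and 24.9 CPM in WT in nuclei with a thinned Reln UMI, and 86.4 and 40.8 CPM in nuclei without one. In the other GABA class the Reln ratio was 0.06.

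The members varied among themselves in their peptides. In thinned KO nuclei, 12.1% of those with a Tac1 UMI and 6.67% of those without one had a Pdyn UMI, and in WT the shares were 13.6% and 6.27%. A Tac1 UMI was found in 33.3% of KO nuclei with a Drd1 UMI and 29.6% of those without one, and in WT the shares were 30.8% and 21.0%. These shares were not tested. Tshz1, a marker of a striosomal D1 subtype and of intercalated cells, had a log2 ratio of -0.55, or -0.35 under the looser rule. Only 12 KO and 36 WT thinned nuclei held a Tshz1 UMI, so its pairings are not read further. Of 9 measured genes of striosomes and D1 subtypes, 0 were higher by 0.5 and 1 was lower, beside 4.96% and 4.34% of all measured genes. Their median was -0.03. The matrix genes, 6 of them measured, had a median of -0.06 with 0 past that size. Epha4, an ephrin receptor of the striatal matrix, had 278 CPM in KO and 302 CPM in WT (-0.12).

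Of 22 measured postsynaptic scaffold and kinase genes 18 had a ratio below 0, beside 4691 of all 9540 genes. By 0.5, 2 were lower and 0 higher, beside 4.34% and 4.96% of all measured genes, and the median was -0.20. Shank1, a scaffold of the postsynaptic density, had 22.4 CPM in KO and 32.7 CPM in WT (-0.55), and Ppp1r9b, which encodes spinophilin, had 31.0 and 44.1 CPM (-0.51). Both came short of 0.5 under some alternatives, at -0.25 for Shank1 and -0.22 for Ppp1r9b nearest to 0. Camk2a, the calcium and calmodulin dependent kinase, had 435 CPM in KO and 543 CPM in WT (-0.32). Dlg4, which encodes PSD-95, had 85.6 CPM in KO and 111 CPM in WT (-0.37). The D2 class had 18 of 22 members below 0 and a median of -0.16, with no share over all genes counted there.

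Receptors for glutamate and GABA were at similar levels in both libraries. The 21 measured glutamate receptor genes had a median of 0.02, or -0.03 under TMM scaling. By 0.5, 1 was higher and 1 lower, beside 4.96% and 4.34% of all measured genes. Grin3a, an NMDA receptor subunit, had 25.9 CPM in KO and 14.8 CPM in WT (0.81), and -0.17 in the D2 class, and its ratio was 0.11 in thinned members. Grm4, a presynaptic metabotropic receptor, had 42.8 CPM in KO and 64.7 CPM in WT (-0.60, or -0.36 in thinned members). The main AMPA and NMDA subunits stayed near 0, such as Gria1 at -0.23, Gria2 at 0.15 and Grin2b at 0.01. Of 22 GABA synapse genes 2 were higher by 0.5 and 0 lower, with a median of 0.06. These were the receptor subunit Gabrg1, with 38.8 CPM in KO and 24.6 CPM in WT (0.66), and the vesicular transporter Slc32a1, with 78.8 and 55.1 CPM (0.52). Among members without a raw Reln UMI the Gabrg1 ratio was -0.89, and under TMM scaling the Slc32a1 ratio was 0.47. The synthetic enzymes Gad1 and Gad2 had ratios of -0.03 and 0.19.

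Few ion channel genes were past 0.5. Of 38 measured potassium channel genes 0 were higher by 0.5 and 1 was lower, beside 4.96% and 4.34% of all measured genes. The median of the list was -0.01. Kcnip3, which encodes the calcium sensor and channel partner DREAM, had 72.0 CPM in KO and 142 CPM in WT, a log2 ratio of -0.98 (-1.17 to -0.79). It was seen in 178 of 371 KO nuclei and 507 of 734 WT nuclei, and its ratio was -0.70 in the D2 class. Kcnip3 lies at chr2:127456498-127522094, on the chromosome of Sema6d, which lies at chr2:124089969-124667770. The part of this position in the Kcnip3 ratio was not tested. Of 28 sodium and calcium channel genes 19 were below 0, beside 4691 of all 9540 genes. By 0.5, 1 was lower and 0 higher, and the median was -0.13. Cacng3, an AMPA receptor auxiliary subunit, was the gene past that size, with 154 CPM in KO and 229 CPM in WT (-0.57), and it was under that size in 3 of 13 alternatives, at -0.20 in thinned members.

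The guidance genes related to Sema6d were measured next. Of 19 measured semaphorin, plexin and neuropilin genes 3 were higher in KO by 0.5 and 2 lower, beside 4.96% and 4.34% of all measured genes. The median was 0.04 and lay just under 0 under TMM scaling. Sema3a, a secreted repellent, had 151 CPM in KO and 88.3 CPM in WT (0.77, interval 0.61 to 0.93), and 23.2% of KO and 14.4% of WT thinned nuclei held a UMI of it. Among members without a raw Reln UMI the Sema3a ratio was 0.37. Its receptor subunit Nrp1 had 19.4 CPM in KO and 36.9 CPM in WT (-0.93, interval -1.31 to -0.56). Plxna2 and Plxna4, plexins of the A class, had 283 and 254 CPM in KO and 318 and 286 CPM in WT, or -0.17 each. Sema5a had 10.3 CPM in KO and 16.8 CPM in WT (-0.71), but 33 of its 126 WT UMIs came from 1 nucleus, and its ratio was -0.37 under the stricter rule. Sema6a and Sema6b had ratios of -0.02 and 0.25.

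Of 40 synaptic adhesion genes 30 were above 0, beside 4849 of all 9540 genes. By 0.5, 1 was higher and 1 lower, beside 4.96% and 4.34% of all measured genes, and the median was 0.07. Cntnap5c, a contactin-associated protein gene of the neurexin family, had 71.7 CPM in KO and 297 CPM in WT, a log2 ratio of -2.05 (-2.23 to -1.87). It was seen in 118 of 371 KO nuclei and 624 of 734 WT nuclei, and the ratio was -2.06 in the D2 class. Its relatives Cntnap5a and Cntnap5b had ratios of 0.05 and 0.07. Lrrtm1, a leucine-rich repeat organiser of synapses, had 25.9 CPM in KO and 17.4 CPM in WT (0.58). Its ratio was under 0.5 in 6 of 13 alternatives, down to 0.32.

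Of 19 measured peptide and granule genes 2 were higher in KO by 0.5 and 1 lower, beside 4.96% and 4.34% of all measured genes. The median log2 ratio was 0.10. Chga, which encodes the granule protein chromogranin A, had 97.9 CPM in KO and 62.3 CPM in WT (0.65), and Scg2, secretogranin II, had 115 and 77.8 CPM (0.56). The Chga ratio was 0.12 in the nuclei chosen after thinning, and the Scg2 ratio 0.14 in members without a raw Reln UMI. The transcription factors of medium spiny neurons were at nearly equal levels, with a median of -0.02 over 20 measured genes, 0 higher by 0.5 and 2 lower, namely Tshz1 and Nr4a1. Foxp1 had 1848 CPM in KO and 1943 CPM in WT, and Bcl11b had 282 and 344 CPM (-0.29).

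**Figure D5:**
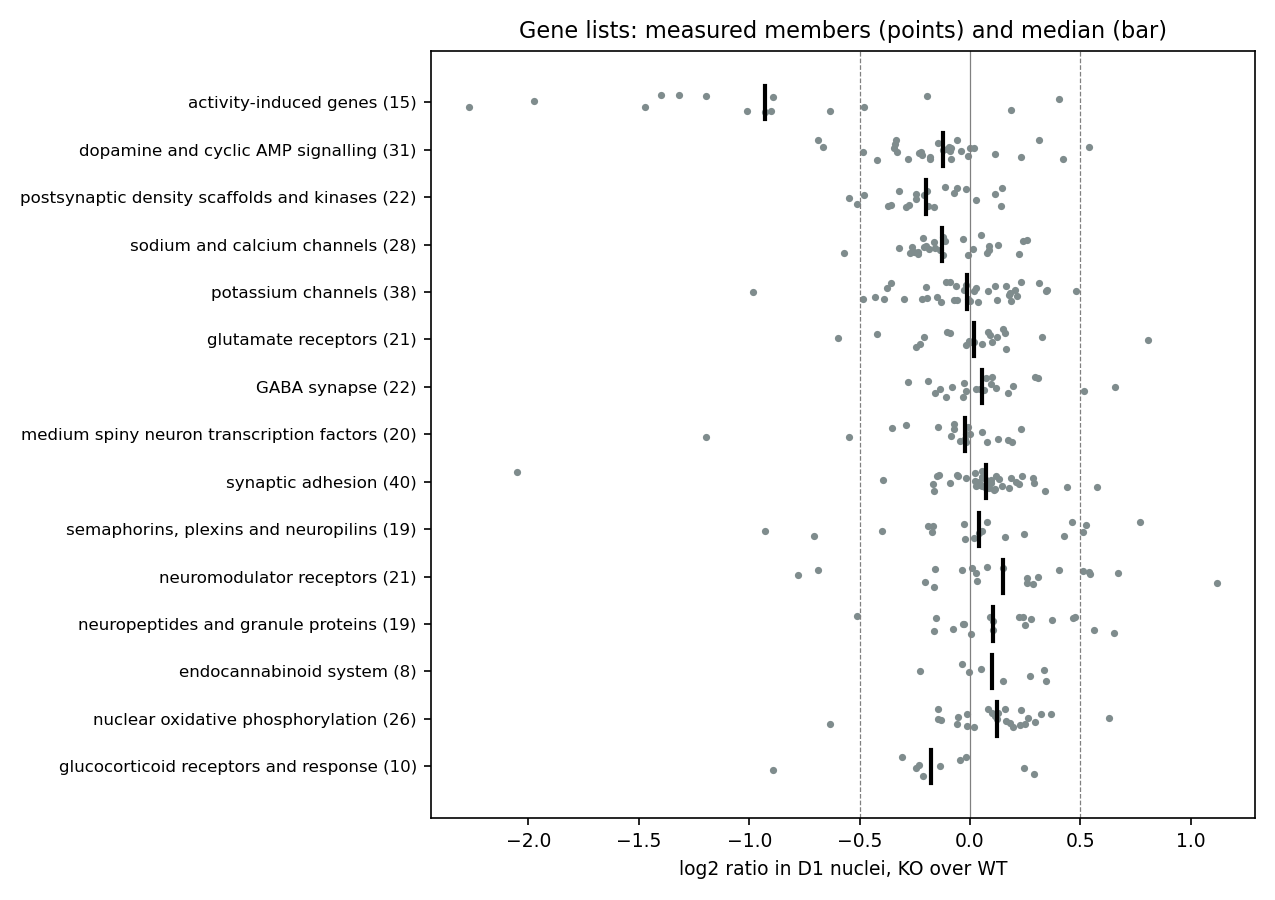
Log2 ratio of KO over WT in D1 nuclei (x axis) of each measured member (points) of 15 gene lists (rows, with the number of measured members), with the median as a bar. The bar of the activity-induced genes lies at -0.93, and those of the other lists lie between -0.20 and 0.15.

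The largest ratios were found outside the lists as well. Among genes with at least 20 CPM in the higher library and at least 25% of the level of each other class, and leaving out unnamed gene models, the highest ratio was that of Glo1, a methylglyoxal-detoxifying enzyme, with 32.0 CPM in KO and 9.22 CPM in WT (1.79). Pla2g4e, a phospholipase, had 39.0 CPM in KO and 13.0 CPM in WT (1.59), and the chromatin protein gene Atad2 had 24.2 and 8.15 CPM (1.57). Btbd9 was the most abundant of the 12 highest, with 391 CPM in KO and 206 CPM in WT (0.93), and its ratio was 0.97 in the D2 class. Ost4, with 26.2 CPM in KO and 13.6 CPM in WT (0.94), stood at -0.06 in the D2 class. The rest of the 12 highest were Ltk, Gpr149, Vps28, Dancr, Slc2a6, Tmem9 and Srm, with ratios from 0.93 to 1.14.

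The lowest ratio was that of Arhgef10l, a guanine nucleotide exchange factor gene, with 4.28 CPM in KO and 24.9 CPM in WT (-2.54, interval -3.35 to -1.82). Crocc, which encodes the ciliary rootlet protein, had 20.4 CPM in KO and 77.1 CPM in WT (-1.92), and Etv5, an ETS transcription factor, had 11.8 and 37.6 CPM (-1.67). Nr4a3, Cntnap5c, Slc26a10, Sox8, Arc, Tiparp, Dusp14 and Zfp933 were also among the 12 lowest. Among members without a raw Reln UMI the Slc26a10 ratio was -0.41. Of the 12 highest, 3 lie on chromosome 2 (Pla2g4e, Ltk and Slc2a6) and 2 each on chromosomes 5 (Dancr and Ost4), 15 (Atad2 and Vps28) and 17 (Glo1 and Btbd9). Glo1 and Btbd9 are neighbours, at chr17:30584936-30626871 and chr17:30215524-30576488 of the mm10 build. Sema6d lies at chr2:124089969-124667770, Pla2g4e at chr2:120166412-120245335 and Ltk at chr2:119751320-119760431. Of the 12 lowest, 4 lie on chromosome 4 (Arhgef10l, Nr4a3, Crocc and Zfp933) and 2 on chromosome 17 (Cntnap5c and Sox8). Of 777 measured genes on chromosome 2, 50 were higher by 0.5 and 38 lower, beside 473 and 414 of all 9540 genes. Chromosome 17 had 25 and 28 of 441, chromosome 4 had 31 and 39 of 582, and chromosome 15 had 23 and 21 of 366. The lowest share past 0.5 in either direction was 4.83%, on chromosome X.

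RNA of other cells was present in the D1 nuclei at low levels. The 6 oligodendrocyte markers summed to 398 CPM in KO and 410 CPM in WT D1 nuclei, against 16474 and 14075 CPM in the oligodendrocyte class. The 6 astrocyte markers summed to 272 CPM in KO and 238 CPM in WT, and the 6 microglial markers to 66.9 and 41.2 CPM. The 5 fibroblast and meningeal markers summed to 128 CPM in KO and 35.5 CPM in WT, nearly all of it Ptgds, which had 127 and 35.1 CPM (log2 ratio 1.85). Ptgds was above Glo1 in ratio but far below its level in the oligodendrocyte class, which kept it out of the 12 highest. Cldn5, Gbx2 and, by the rule, Slc17a7 were at 0 in D1 nuclei of both libraries. Scrublet marked 5.39% of KO and 5.86% of WT D1 nuclei as doublets. The part of these levels, and of the lower mitochondrial share in KO, in the differences above was not tested.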

How the data were processed

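Nuclei of the amygdala were profiled in 2 samples, 1 library per genotype. The authors deposited raw UMI counts, 1 matrix per library with 32285 Ensembl gene identifiers against barcodes. Per the submitters' processing notes, Cell Ranger 6.0.0 and the mm10 build were used. Neither the annotation version nor the handling of intronic reads is given in the sources used here. Symbols were matched by identifier for 32158 genes. The libraries held 60402979 UMIs in 8666 barcodes (KO) and 85124128 UMIs in 11060 barcodes (WT).

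The members and the gene lists were chosen with earlier results of these data known. UMIs were summed over the members of each library and expressed per 1e+06 UMIs (CPM), and ratios are log2 of KO over WT. Intervals are exact conditional binomial or Clopper-Pearson intervals at 95% and leave out any difference between animals, dissections or preparations. A list was described over members with at least 100 UMIs in both libraries together, with 0.5 on the log2 scale as the size counted. A count of 0 in 1 library was set to a floor of 3 counts. Named genes were the 12 highest and 12 lowest ratios among genes with at least 20 CPM in the higher library and at least 25% of the level of each other class. The most abundant and most different members of the lists, and the genes leading D1 over other or D2 nuclei, were added. Genes encoded by mitochondria or the Y chromosome, Xist and gene models without a proper name were not named.

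The classes used for comparison were also cut from raw UMIs. D2 nuclei had at least 1 Rgs9, 2 Rarb and 2 Drd2 UMIs. They had at most 2 of Ebf1 and 0 of Slc17a7. Oligodendrocytes had at least 2 Mobp UMIs and none of the neuronal Gad1, Gad2, Slc17a7 and Slc17a6, with 1 more criterion that is not reported here, as is 1 of the 12 lowest genes. Doublets were kept except in an alternative with Scrublet (scanpy 1.11.5, 0.8% expected per 1000 nuclei). TMM factors came from edgeR 4.0.16 in R 4.3.3. Other steps used Python 3.11.15, numpy 2.4.6, scipy 1.17.1 and pandas 2.3.3. The ratio and its interval were tested on simulated data. Positions are those of GENCODE vM21 on mm10, and promoter sequences those of RefSeq.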

Additional observations from a re-analysis of the deposited data

Results flagged for a closer look

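For 3 genes of the lists the log2 ratio of KO over WT lay past 0.5 in D1 nuclei and past it in the opposite direction in the D2 class. The difference between the classes was not tested. Sema5a, a transmembrane semaphorin, had a ratio of -0.71 in D1 nuclei and 0.74 in the D2 class. Of its 126 UMIs in WT D1 nuclei, 33 lay in 1 nucleus. Tacr1, the substance P receptor, had 0.51 in D1 nuclei and -0.50 in the D2 class. Its D1 ratio lay between -0.5 and 0.5 in 6 of 11 alternatives. Apart from these, it was -0.71 without doublets and -3.17 in members without a raw Reln UMI, the direction of the D2 class. Sema4b, another semaphorin, had 0.51 in D1 nuclei, with 13.3 CPM in KO and 9.35 CPM in WT, and -0.57 in the D2 class. Its D1 ratio was under 0.5 in 8 of 12 alternatives, TMM scaling and leaving out doublets among them.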

How the results depend on the processing

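No paired analysis was possible because each genotype has 1 library. The share of nuclei that met the rule, KO over WT, was 0.671, and 0.50 when the rule was applied after thinning. The counts of genes higher and lower in KO (473 and 414) were 73 and 122 in the nuclei chosen after thinning, 137 and 217 in thinned members, 1292 and 1043 at a minimum of 20 UMIs, 120 and 163 at 300 UMIs, and 24 and 38 at a log2 ratio of 1. The count of higher genes was 252 under the stricter rule and 221 among members without a raw Reln UMI, an alternative chosen after seeing the data, as was leaving out each gene's highest nucleus. TMM scaling moved the split to 364 higher and 549 lower, and median-of-ratios scaling to 386 and 515. The median of the sodium and calcium channels was -0.0015 in nuclei chosen after thinning and -0.0068 without raw Reln UMIs, and that of the GABA synapse -0.12 after thinning. The activity-induced median stayed between -0.99 and -0.69 in 12 alternatives, and the other 3, the thinned and the Reln ones, left fewer than 3 of its genes measured. Semaphorins, potassium channels and glutamate receptors had medians of the other sign in 5, 4 and 3 of 15 alternatives. Of 59 named genes past 0.5, 34 stayed past it and 55 kept their direction in each alternative that could be run for the gene (8 to 13). The others were Chrm4 (-0.066 after thinning), Gabrg1 (-0.89 without Reln nuclei), Sema4b (-0.015 without Reln nuclei) and Tacr1, at -0.71 without doublets, -3.17 without Reln nuclei, -0.013 with nuclei weighted alike and -0.0089 without its highest nucleus. The causes were not tested. Genes under 100 UMIs are limited by depth. The 59 genes include Drd2, whose UMIs the rule itself limits, and Fos, Fosb and Vip, which like Drd2 had under 100 UMIs. The alternative with at least 1000 genes kept the same 371 KO and 734 WT members, so it could not change any ratio.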

Other observations

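Energy, endocannabinoid and stress hormone genes were also measured in the D1 nuclei. Of 26 nuclear genes of oxidative phosphorylation 18 had a log2 ratio of KO over WT above 0, beside 4849 of all 9540 genes. By 0.5, 1 was higher and 1 lower, beside 4.96% and 4.34% of all measured genes, and the median was 0.12. Sdha, a subunit of succinate dehydrogenase, had 90.1 CPM in KO and 72.0 CPM in WT (0.32), and Cox6a1 had 32.0 and 49.6 CPM (-0.63, or -0.27 among members without a raw Reln UMI). The 8 measured endocannabinoid genes had a median of 0.10, with 0 past 0.5 in either direction. Mgll, the lipase that breaks down 2-arachidonoylglycerol, had 104 CPM in KO and 82.3 CPM in WT (0.34). Of 10 measured genes of glucocorticoid receptors and response 8 were below 0, beside 4691 of all 9540 genes. By 0.5, 1 was lower (Per1) and 0 higher, and the median was -0.17. Fkbp5, a chaperone induced by glucocorticoids, had 98.1 CPM in KO and 80.2 CPM in WT (0.29), and Sgk1 had 372 and 441 CPM (-0.24).

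Vip, a peptide of interneurons, had 5 UMIs in KO and 55 UMIs in WT D1 nuclei, and 42 of the WT UMIs lay in 1 nucleus.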
